A study of Mus musculus with 4 samples.

Results

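The Polycomb complex genes described here are Ezh1, Ezh2, Eed, Suz12, Jarid2 and Mtf2 of Polycomb repressive complex 2 (PRC2) and Rnf2, Bmi1, Cbx2 and Cbx7 of Polycomb repressive complex 1 (PRC1). They were taken by name from the deposited count table, which holds 54842 genes, and all 10 were found and passed the filter on low counts (at least 10 counts in at least 2 libraries). HiSeq RNA sequencing of total RNA, depleted of ribosomal RNA, was compared between wt and Top2β-null mouse embryonic fibroblasts (MEF cells), all untreated, with 2 libraries of each genotype. By their label, Top2β-null cells lack the β isoform of DNA topoisomerase II, an enzyme that passes DNA strands through each other during transcription. No further allele or agent is given for either group, and neither is the age of the embryos. The Top2β-null MEF cells had been derived from Top2β-null mice and were a gift. The study cites another source for its MEF cells and does not say which wt cells gave these libraries. The origin of the cells and the genotype therefore cannot be told apart. The labels do not say whether replicate libraries came from separate cultures, and the p-values then measure only the spread between these libraries, which may be technical.

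PRC2 places methyl groups on lysine 27 of histone H3 through its catalytic subunit, Ezh2 or Ezh1, which works together with Eed and Suz12. PRC1 places ubiquitin on histone H2A through Rnf2 or Ring1, and its canonical form holds a Cbx protein that binds the mark left by PRC2. Together the complexes keep developmental genes silent, and in cultured fibroblasts they are best known for repressing the Cdkn2a locus, which halts the cell cycle in senescence.

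Total counts were between 133116830 and 149647278 per library, of which 19.3% to 21.4% fell on repeats. The targeted gene, Top2b, stood at 18259 and 18465 normalized counts in wt and at 3879 and 3789 in Top2β-null cells, or 20.9% of the wt mean (log2 fold change -2.26, standard error 0.0271, adjusted p = 6.6e-19 by the quasi-likelihood test of edgeR with Benjamini-Hochberg adjustment). Normalized counts are counts scaled to a common effective library size. The 8 fibroblast markers were all detected, with a sum of 1300293 and 1324934 normalized counts in wt and of 878656 and 883434 in Top2β-null cells. At an adjusted p below 0.05, 7 of the 8 differed (66.4% of all genes tested did), with 4 lower, among them Col1a1 (0.384-fold), and 3 higher, Pdgfra (2.24-fold), Pdgfrb (3.68-fold) and Thy1 (4.21-fold). The sum of 5 leukocyte markers was 1648 and 1696 in wt and 307 and 296 in Top2β-null cells, of which Cd68 alone gave 1641, 1688, 302 and 289. The pan-leukocyte marker Ptprc lay between 2.07 and 6.76 normalized counts, Cd3e at or below 2.97, and Tyrobp and Adgre1 were at 0 in every library. The sum of 4 epithelial markers was 67.6 and 70.5 in wt and 19.7 and 19.8 in Top2β-null cells. The sum of 4 endothelial markers was 165 and 162 in wt and 252 and 258 in Top2β-null cells, of which Kdr gave 71.7, 68.6, 203 and 205. The other endothelial markers did not share that direction. Tek fell from 43.4 and 34.8 to 9.32 and 3.96 (log2 fold change -2.54). Tek passed the filter on low counts through the wt libraries alone, so its fall is a description. Pecam1 (-0.5) and Cdh5 (-0.16) did not pass the test. The sum of 4 pluripotent or germ cell markers was 20.2 and 18.4 in wt and 53.9 and 65.4 in Top2β-null cells, of which Nanog gave 3.03, 0.966, 43.5 and 42.6. Nanog passed the filter on low counts through the Top2β-null libraries alone, so its rise is a description. The other markers of this list did not share it. Pou5f1 overlapped between the groups (13.1 and 13.5 in wt, 9.32 and 19.8 in Top2β-null cells). Ddx4 went from 4.04 and 3.86 to 0 and 2.97, and Dppa3 was at or below 1.04 in every library. The part of these marker differences in the results was not tested, and in bulk RNA fewer cells of a type and less RNA per cell cannot be told apart.

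Promoters of 4 of the genes are shown first. RefSeq start sites (GRCm38.p6) were available as windows from 250 bases before to 50 bases after the start for 9 of the 10 genes, in 11 windows. CpG dinucleotides are the feature these windows share: 9 of the 11 held more of them than the upper quartile of all 32851 mouse windows of the same length, which is 20, and the median of all windows is 7. The Cbx7 window held 33 CpG, the Ezh2 window 31, the Rnf2 window 30 and the Ezh1 window 23. The windows with fewer were that of Eed, with 17, and the second of Mtf2, with 2. The 250 bases before the start are printed 5′ to 3′ for the catalytic paralogues Ezh2 and Ezh1, whose counts moved in opposite directions, and for Rnf2 and Cbx7, the PRC1 genes with the largest changes, with each CpG in capitals:
Ezh2, chr6:47595031-47595280, reverse strand: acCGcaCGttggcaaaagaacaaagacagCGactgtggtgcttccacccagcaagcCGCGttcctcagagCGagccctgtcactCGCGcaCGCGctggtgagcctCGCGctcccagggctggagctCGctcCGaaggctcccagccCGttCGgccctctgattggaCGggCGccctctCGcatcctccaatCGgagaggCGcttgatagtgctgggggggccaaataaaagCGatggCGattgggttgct
Ezh1, chr11:101226464-101226713, reverse strand: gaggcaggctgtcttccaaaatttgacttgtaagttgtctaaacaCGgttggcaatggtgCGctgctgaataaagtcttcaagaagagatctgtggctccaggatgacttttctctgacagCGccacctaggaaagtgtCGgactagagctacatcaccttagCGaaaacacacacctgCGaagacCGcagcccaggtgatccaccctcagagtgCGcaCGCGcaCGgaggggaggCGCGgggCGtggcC
Rnf2, chr1:151500992-151501241, reverse strand: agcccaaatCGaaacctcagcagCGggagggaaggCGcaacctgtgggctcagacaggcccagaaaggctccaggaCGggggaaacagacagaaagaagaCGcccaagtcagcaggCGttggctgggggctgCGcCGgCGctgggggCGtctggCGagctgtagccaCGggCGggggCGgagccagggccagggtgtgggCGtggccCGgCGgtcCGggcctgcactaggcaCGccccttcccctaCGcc
Cbx7, chr15:79932647-79932896, reverse strand: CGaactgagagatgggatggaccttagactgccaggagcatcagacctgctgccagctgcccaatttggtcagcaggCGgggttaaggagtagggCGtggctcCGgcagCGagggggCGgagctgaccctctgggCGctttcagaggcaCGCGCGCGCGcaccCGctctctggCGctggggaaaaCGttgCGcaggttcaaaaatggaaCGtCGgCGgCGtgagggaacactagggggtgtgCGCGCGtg

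A search on both strands for the E2F-type motif TTTNNCGC, which is found in promoters of cell cycle genes, matched in 2 of the 9 genes, Ezh2 and Suz12. It matched in 5.17% of all windows. The Ezh2 match covers bases 254 to 261 of its window, just after the start, and the Suz12 match bases 32 to 39. They are printed with the flanking bases, the match in capitals:
Ezh2, chr6:47595009-47595038, reverse strand: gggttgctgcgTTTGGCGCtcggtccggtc
Suz12, chr11:79992876-79992905, forward strand: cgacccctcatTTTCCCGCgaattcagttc
The Sp1-type motif GGGCGG matched in 6 of the 9 genes (35.7% of all windows), among them Rnf2 and Cbx7 but neither Ezh2 nor Ezh1. The TATA box TATAAA matched in Jarid2 alone (13.6% of all windows). The ETS-type motif CCGGAAG (8.86% of all windows) and the NRF1-type motif GCATGCGC (2.71%) matched in none of the 9. These are letter matches in fixed windows, and overlaps between different motifs were not removed.

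All 10 Polycomb genes differed between the genotypes at an adjusted p below 0.05. In Top2β-null MEF cells 9 were higher and 1, Ezh1, was lower. The background is high in this comparison: 66.4% of the 25085 genes tested passed the same threshold, 32.8% as higher and 33.7% as lower. In every one of the 10 genes both Top2β-null libraries lay on the same side of both wt libraries, as they did for 81.9% of all genes tested. The cut-offs used by the study (adjusted p below 0.05, absolute log2 fold change above 1 and mean normalized count above 100) were passed by 1 of the 10, Cbx7, against 10.8% of all genes (5.52% as higher and 5.25% as lower). The median log2 fold change of the 10 genes was 0.31, and that of all genes was -0.0058. Their median absolute log2 fold change was 0.38, against 0.42 over all genes.

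**Figure D1:**
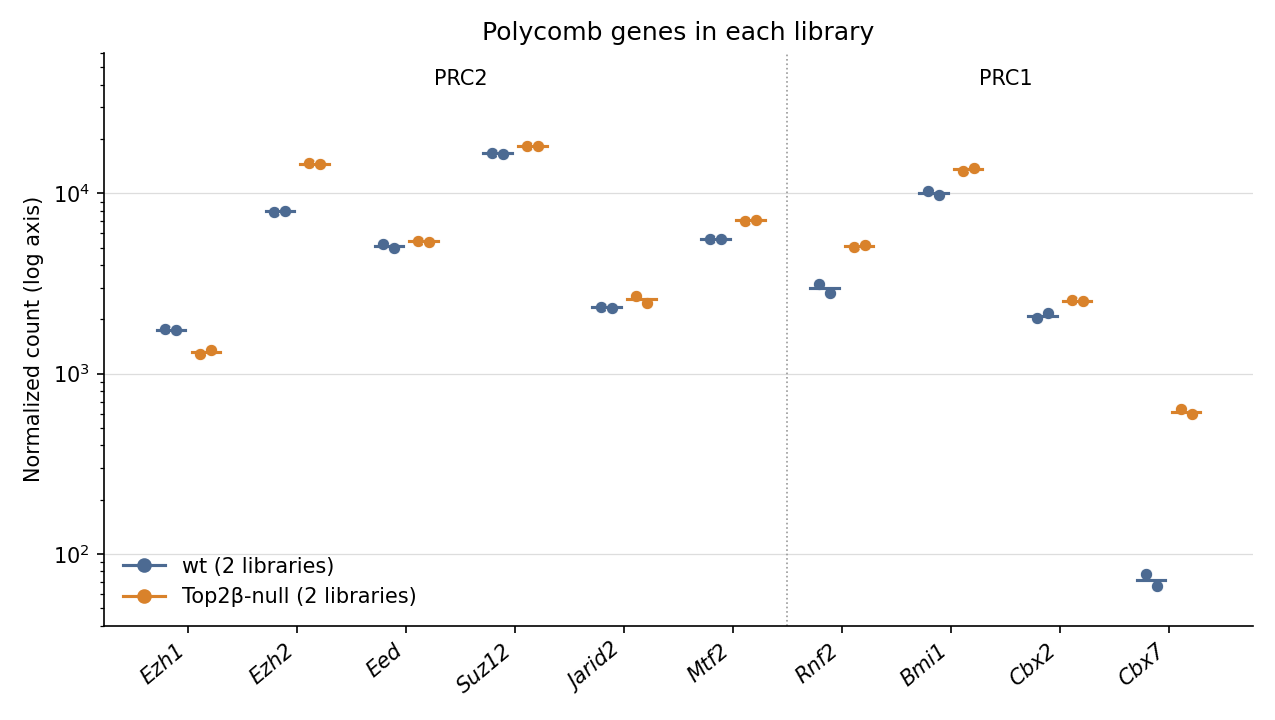
Normalized counts (log axis) of the 10 Polycomb genes in each of the 2 wt and 2 Top2β-null libraries; points are libraries and bars are group means. Ezh1 is the only gene whose Top2β-null libraries (1282 and 1350) lie below its wt libraries (1767 and 1737), and Cbx7 has the widest gap between the groups.

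Among the catalytic subunits of PRC2, Ezh2 rose and Ezh1 fell in Top2β-null MEF cells. Ezh2, the methyltransferase that predominates in dividing cells, had 7908 and 7998 normalized counts in wt and 14653 and 14596 in Top2β-null cells. The replicates lay close together and the groups far apart, a 1.84-fold difference of the means (log2 fold change 0.88, standard error 0.0249, adjusted p = 2.3e-14 from edgeR). Ezh1, the paralogue that prevails in resting cells, had 1767 and 1737 normalized counts in wt and 1282 and 1350 in Top2β-null cells. Its Top2β-null mean was 75.1% of the wt mean (log2 fold change -0.41, standard error 0.05, adjusted p = 2.1e-06 from edgeR).

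The ratio of Ezh2 to Ezh1 within a library needs no scaling between libraries. Ezh2 had 4.99 and 5.13 times the Ezh1 level per kb of exon in the wt libraries and 12.7 and 12 times in the Top2β-null libraries. On the log2 scale the ratios lay 1.29 apart, with a pooled replicate SD of 0.0450. With 2 libraries against 2, the exact two-sided permutation test gave p = 0.33, which is the smallest it can give. Ezh2 thus made up 83.5% ± 0.28 of the summed Ezh1 and Ezh2 level per kb in wt and 92.5% ± 0.271 in Top2β-null cells (SD, n = 2 each). That sum itself went from 1420 and 1430 to 2370 and 2370 normalized counts per kb. These shares, like those of the other families below, were chosen after the values had been seen.

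The core partners Eed and Suz12 changed much less than Ezh2. Eed, which binds the methylated histone tail, had 5262 and 4961 normalized counts in wt and 5430 and 5397 in Top2β-null cells. This was the smallest of the 10 differences (log2 fold change 0.083, standard error 0.0326, adjusted p = 0.0357 from edgeR), and its call was lost with DESeq2 (adjusted p = 0.094) and without the second wt library (0.027, adjusted p = 0.6; over all alternatives the adjusted p ran from 0.0007 to 0.6). Suz12, the scaffold of the complex, had 16771 and 16571 normalized counts in wt and 18314 and 18328 in Top2β-null cells. The groups did not overlap, at a 1.10-fold difference (log2 fold change 0.14, standard error 0.0241, adjusted p = 0.00012 from edgeR).

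Both accessory subunits also rose, Mtf2 more than Jarid2. Mtf2, a Polycomb-like protein that brings PRC2 to CpG-rich DNA, had 5579 and 5566 normalized counts in wt and 7042 and 7110 in Top2β-null cells (1.27-fold, log2 fold change 0.34, standard error 0.0271, adjusted p = 1.1e-08 from edgeR). Jarid2, a DNA-binding cofactor that stimulates the complex, had 2352 and 2308 normalized counts in wt and 2695 and 2474 in Top2β-null cells. Its Top2β-null libraries were farther apart than its wt libraries, and both lay above them (1.11-fold, log2 fold change 0.15, standard error 0.0469, adjusted p = 0.0109 from edgeR).

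In PRC1, the ubiquitin ligase Rnf2 (RING1B) rose while its paralogue Ring1 fell. Rnf2 had 3137 and 2809 normalized counts in wt and 5069 and 5202 in Top2β-null cells, a 1.73-fold difference (log2 fold change 0.79, standard error 0.0440, adjusted p = 1.4e-10 from edgeR). Ring1 had 1233 and 1222 normalized counts in wt and 831 and 851 in Top2β-null cells (log2 fold change -0.55, standard error 0.0549, adjusted p = 2.3e-07 from edgeR). Per kb, Rnf2 was at 2.00 and 1.81 times the Ring1 level in the wt libraries and at 4.8 and 4.8 times in the Top2β-null libraries. The log2 ratios differed by 1.34 (pooled SD 0.0729, exact permutation p = 0.33, the smallest possible), and the share of Rnf2 in the pair went from 65.5% ± 1.61 to 82.8% ± 0.0196 (SD, n = 2 each). In both enzyme pairs the more abundant paralogue was higher and the less abundant one lower in Top2β-null cells.

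Bmi1 and its paralogue Pcgf2, the PCGF subunits of canonical PRC1, both rose. Bmi1, a repressor of the Cdkn2a locus, had 10267 and 9807 normalized counts in wt and 13371 and 13741 in Top2β-null cells, a 1.35-fold difference (log2 fold change 0.43, standard error 0.0281, adjusted p = 9.7e-10 from edgeR). Pcgf2 had 2546 and 2631 normalized counts in wt and 3930 and 4053 in Top2β-null cells (log2 fold change 0.62, standard error 0.0385, adjusted p = 5.1e-10 from edgeR). The log2 ratio of Bmi1 to Pcgf2 was lower by 0.19 in Top2β-null cells (pooled SD 0.0567, exact permutation p = 0.33, the smallest possible). Bmi1 remained the most abundant of the 6 PCGF genes per kb, with 42.0% ± 0.585 of their sum in wt and 44.8% ± 0.0509 in Top2β-null cells (SD, n = 2 each). Pcgf5, of variant PRC1, went from 6.63% to 2.81% of that sum.

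**Figure D2:**
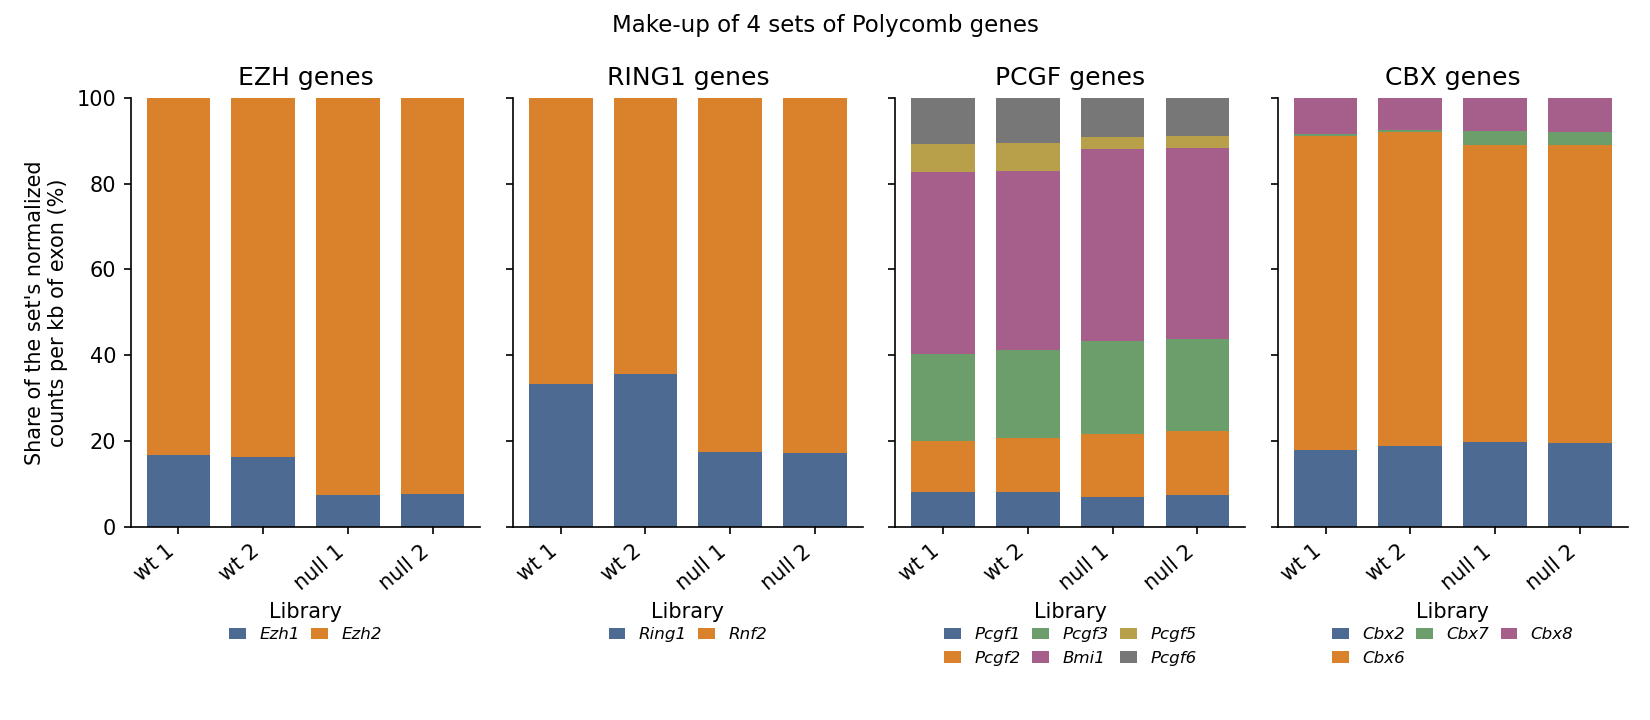
Share of each gene in the summed normalized counts per kb of exon (%) of the EZH, RING1 and PCGF families and of Cbx2, Cbx6, Cbx7 and Cbx8, 1 stacked bar per library. The Ezh2 and Rnf2 segments are larger in both null libraries (at least 92.3% and 82.7%) than in both wt libraries (at most 83.7% and 66.7%). In the CBX bars the Cbx6 segment is smaller in both null libraries (69.3% and 69.5%) than in wt (73.3% in both). The thin Cbx7 segment is larger (at least 3.04% against at most 0.447%).

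Cbx7 showed the largest fold change of the 10 genes from the lowest level, and Cbx2 rose modestly. Cbx7, a reader of the PRC2 mark that is prominent in embryonic stem cells and extends the lifespan of cultured fibroblasts, had 77.7 and 66.6 normalized counts in wt and 634 and 597 in Top2β-null cells. Both Top2β-null libraries thus held far more Cbx7 counts than either wt library, an 8.53-fold difference (log2 fold change 3.09, standard error 0.112, adjusted p = 5.5e-13 from edgeR). Among the 16656 genes with a mean over 100 normalized counts, 3.87% differed by as much as Cbx7 or more, in either direction. The same share was 19.2% for Ezh2 and 21.9% for Rnf2, and it lay between 41.5% and 86.1% for the other 7 genes. Cbx2, the chromodomain protein that compacts nucleosomes, had 2039 and 2158 normalized counts in wt and 2566 and 2522 in Top2β-null cells (1.21-fold, log2 fold change 0.28, standard error 0.0445, adjusted p = 4.4e-05 from edgeR).

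The Cbx7 value carries a limit from its neighbour. The last exon of Cbx7 (reverse strand, chr15:79915807-79971119) shares 100 bases, or 1.54% of the exon bases of Cbx7, with Apobec3, a forward-strand gene that edits viral DNA, and Apobec3 went from 11.1 and 3.86 to 2680 and 2762 normalized counts (log2 fold change 8.5). The strand setting of the counting is not given in the sources used here. In the table, 111 genes lying wholly within exons of an abundant opposite-strand gene had a median of 0.792 times its counts per base (0.474 times for 29 such genes on the same strand), so reads of overlapping genes on opposite strands may be counted together. At the mean Apobec3 count per exon base, the shared bases would hold 28.4 and 29.2 normalized counts in the Top2β-null libraries, or 4.68% of the Cbx7 mean. Reads that run past the annotated end of Apobec3 are not in that estimate, and their part in the Cbx7 value was not tested.

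Other members of the 10 genes also overlap a neighbour on the opposite strand. The same estimate came to 11.7% of the Top2β-null mean for Mtf2, whose neighbour Tmed5 did not pass the test (16155 and 15377 against 15977 and 16382 normalized counts, adjusted p = 0.258 from edgeR). It came to 1.28% or less for Rnf2, Ezh2, Suz12 and Eed. The estimate assumes even coverage and full sharing, which need not hold: for Phf1 and its neighbour Cuta it came to 130% of the Phf1 mean. Of the other related genes named below, it came to 4.03% for L3mbtl2, which shares 17.2% of its exon bases with Chadl, to 6.42% for Kdm2b with Rnf34 and to 6.45% for Rbbp4 with Gm26722.

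Cbx6 and Cbx8, also of canonical PRC1, differed far less than Cbx7. Of the summed level per kb of Cbx2, Cbx6, Cbx7 and Cbx8, Cbx6 made up 73.3% in wt and 69.4% in Top2β-null cells, with 20830 and 20948 against 22459 and 22346 normalized counts (log2 fold change 0.10, standard error 0.0240, adjusted p = 0.0016 from edgeR). Cbx8 had 831 and 736 normalized counts in wt and 875 and 875 in Top2β-null cells (log2 fold change 0.16, standard error 0.0665, adjusted p = 0.0455 from edgeR), a call lost with DESeq2 (adjusted p = 0.15) and without the second wt library (adjusted p = 0.55, the highest over the alternatives). Cbx7 made up 0.414% ± 0.0462 of that sum in wt and 3.12% ± 0.112 in Top2β-null cells (SD, n = 2 each), and thus was the scarcest of these 4 genes in both. The level of Cbx2 was 40 and 49.3 times that of Cbx7 in wt and 6.17 and 6.43 times in Top2β-null cells (log2 ratio lower by 2.82, pooled SD 0.155, exact permutation p = 0.33, the smallest possible).

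Over the 4 libraries, the genes with a pattern most like that of Cbx7, measured as the root mean square distance of centred log2 values among 16656 genes, were S1pr1 (0.0502), Onecut2 (0.0503) and Runx1t1 (0.0533). S1pr1 had 485 and 442 normalized counts in wt and 3866 and 3942 in Top2β-null cells. With 2 groups of 2 libraries, such likeness says little more than that the fold changes are alike.

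In wt MEF cells, the order of the 10 genes by normalized counts per kb of exon was Suz12 (3370), Bmi1 (2530), Eed (1340), Ezh2 (1190), Mtf2 (978), Rnf2 (720), Cbx2 (493), Jarid2 (240), Ezh1 (235) and Cbx7 (11.1). Jarid2 and Ezh1 overlapped between libraries, and no other neighbours in this order did. In Top2β-null MEF cells Suz12 (3700) and Bmi1 (3410) still led, Ezh2 (2190) stood above Eed (1410), and Rnf2 (1240) overlapped with Mtf2 (1240). Cbx2 (598), Jarid2 (266), Ezh1 (177) and Cbx7 (94.9) followed without overlap. Ezh2 thus moved up 1 place, above Eed, and Cbx7 was last in both groups.

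Of 35 other Polycomb and opposing genes found in the table, 31 had an adjusted p below 0.05 (21 higher and 10 lower) and 5 passed the study's cut-offs (4 higher and 1 lower), beside 66.4% and 10.8% of all genes tested. Without either Top2β-null library 4 passed the cut-offs (3 higher), as the mean normalized count of Asxl3 then fell under 100. Their median log2 fold change was 0.14. Among the 7 other PRC2 genes, 4 rose and 3 fell, with log2 fold changes between -0.59 and 0.69. The histone chaperones Rbbp4 and Rbbp7 fell slightly (log2 fold changes -0.27 and -0.13), and Aebp2, a cofactor that marks the Jarid2-containing form of PRC2, rose by 0.69. Of the Polycomb-like proteins related to Mtf2, Phf19 rose by 0.31, and Phf1 had a log2 fold change of -0.59 but shares 39.3% of its exon bases with Cuta on the opposite strand, which itself stood at -0.43.

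Among the 9 other canonical PRC1 genes, 6 rose and 2 fell (66.4% of all genes tested did either), and 2, Phc1 and Scml2, passed the cut-offs (10.8% of all genes). Phc1, a polyhomeotic protein that clusters PRC1, had 2205 and 2138 normalized counts in wt and 5511 and 5427 in Top2β-null cells (log2 fold change 1.33, standard error 0.0358, adjusted p = 1.2e-14 from edgeR). Its paralogues Phc2 and Phc3 stood at -0.068 and 0.024. Scml2, a germline-enriched PRC1 partner, had 94.9 and 89.8 normalized counts in wt and 766 and 809 in Top2β-null cells, with both Top2β-null libraries far above wt (log2 fold change 3.09, standard error 0.0961, adjusted p = 7.6e-14 from edgeR).

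Of the 13 variant PRC1 genes 8 were higher and 4 lower at an adjusted p below 0.05, beside 32.8% and 33.7% of all genes tested. Auts2, which turns PRC1 with Pcgf5 or Pcgf3 towards activation in neurons, was the 1 gene of them to pass the cut-offs (10.8% of all genes): it had 17.2 and 19.3 normalized counts in wt and 3188 and 3227 in Top2β-null cells (log2 fold change 7.45, standard error 0.0916, adjusted p = 8.7e-19 from edgeR). Its partner Pcgf5 fell (log2 fold change -0.90), and Pcgf3 rose (0.42). Kdm2b, which tethers variant PRC1 to CpG islands, rose by 0.84, and the paralogues Rybp and Yaf2, which replace Cbx proteins in this form, stood at 0.75 and -0.54. Of the members of the complex with Pcgf6, E2f6 (-0.92) and L3mbtl2 (-0.77, with the overlap given above) fell and Mga (0.52) rose. Pcgf6 itself did not pass the test (0.089, adjusted p = 0.0617 from edgeR).

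Among the 6 opposing genes, which encode enzymes that remove the Polycomb marks or cofactors of such an enzyme, 3 rose and 1 fell, a share like the 66.4% of all genes tested, and 2 passed the cut-offs (10.8% of all genes). Kdm6b, a demethylase of lysine 27 of histone H3, had 14304 and 14671 normalized counts in wt and 3799 and 3726 in Top2β-null cells, or 26% of the wt mean (log2 fold change -1.95, standard error 0.0278, adjusted p = 4.7e-18 from edgeR). Its paralogue Kdm6a did not pass the test (-0.0070, adjusted p = 0.879 from edgeR). Asxl3, a cofactor of the deubiquitinase Bap1, had 10.1 and 1.93 normalized counts in wt and 232 and 227 in Top2β-null cells (log2 fold change 5.25). With 10 and 2 counts in wt, Asxl3 passed the filter on low counts only because it was high in Top2β-null cells, so this is a description. Its fold change rested on the few wt counts, at 6.79 on the log2 scale without the first wt library and 4.47 without the second. By contrast, Asxl1, its most abundant paralogue, stood at 0.14 and Bap1 at 0.082.

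**Figure D3:**
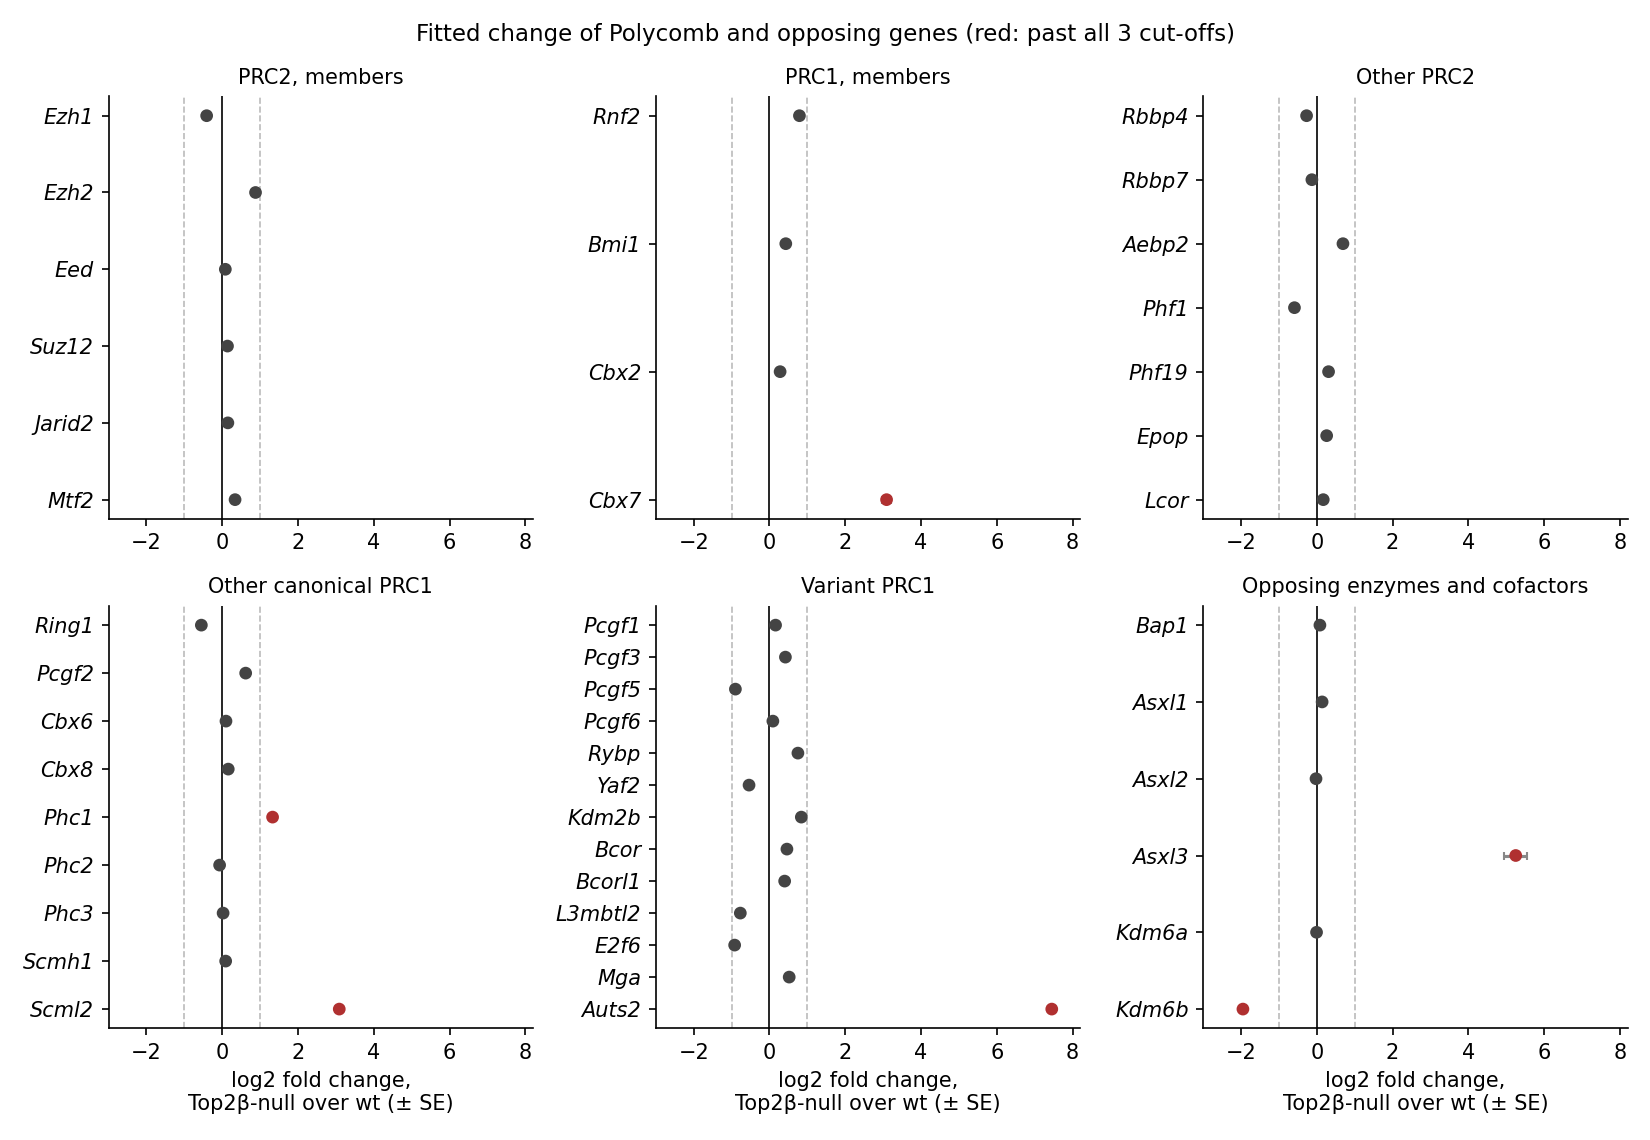
Fitted log2 fold change of Top2β-null over wt (± standard error, most bars smaller than the points) for the 10 Polycomb genes and 35 related genes by role; dashed lines mark log2 fold changes of -1 and 1 and red points pass all cut-offs. Of the 10 genes only Cbx7 (3.09) passes, and of the related genes Phc1, Scml2, Auts2 and Asxl3 are higher and Kdm6b (-1.95) is lower.

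RNA of textbook Polycomb target genes was looked at beside the complexes. Of 18 such genes 11 passed the filter on low counts, but Gata4, Pax3, Foxa2 and Wt1 reached 10 counts in the Top2β-null libraries alone. These 4 could thus be tested only because they were high there. Lhx2, with 6 and 12 counts in wt, also needed the Top2β-null libraries to pass. The counts below are therefore a description. Of the 11 genes, 10 had an adjusted p below 0.05 (5 higher and 5 lower), and 5 passed the cut-offs, beside 66.4% and 10.8% of all genes tested. Without the first or the second Top2β-null library these 4 genes failed the filter, 5 or 6 targets had an adjusted p below 0.05 (1 higher), and 3 passed the cut-offs (1 higher). At the Cdkn2a locus, Cdkn2a had 5074 and 5141 normalized counts in wt and 3535 and 3563 in Top2β-null cells (log2 fold change -0.53), and Cdkn2b 2432 and 2384 against 1601 and 1554 (-0.61). Both cell cycle inhibitors thus fell while Bmi1, Cbx7 and Ezh2 rose in the same libraries, and whether these are connected was not tested.

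The 5 targets that passed the cut-offs all encode transcription factors. Gata4, of heart and gut endoderm, had 6.06 and 2.90 normalized counts in wt and 1498 and 1523 in Top2β-null cells (log2 fold change 8.37, as a description only). Its paralogue Gata6 went the other way, from 1418 and 1294 to 151 and 156 (log2 fold change -3.14, standard error 0.0811, adjusted p = 7.4e-15 from edgeR). Pax3, of the neural crest and muscle lineage, had 0 counts in both wt libraries and 248 and 273 normalized counts in Top2β-null cells, at least 87.9-fold higher against a floor of 3 counts per library. Lhx2, a forebrain and limb factor, rose from 6.06 and 11.6 to 384 and 406 (log2 fold change 5.46), and Pax9 fell from 1004 and 1033 to 495 and 479 (-1.06, but -0.99 and so short of the cut-off with scaling to the total count). The factor Pax6 did not pass the test (-0.35, adjusted p = 0.377 from edgeR). Of the 39 Hox genes, the classical Polycomb targets, 23 passed the filter, 8 of them through the libraries of 1 genotype alone. These 23 had an adjusted p below 0.05, 11 as higher and 12 as lower, beside 66.4% of all genes tested.

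**Figure D4:**
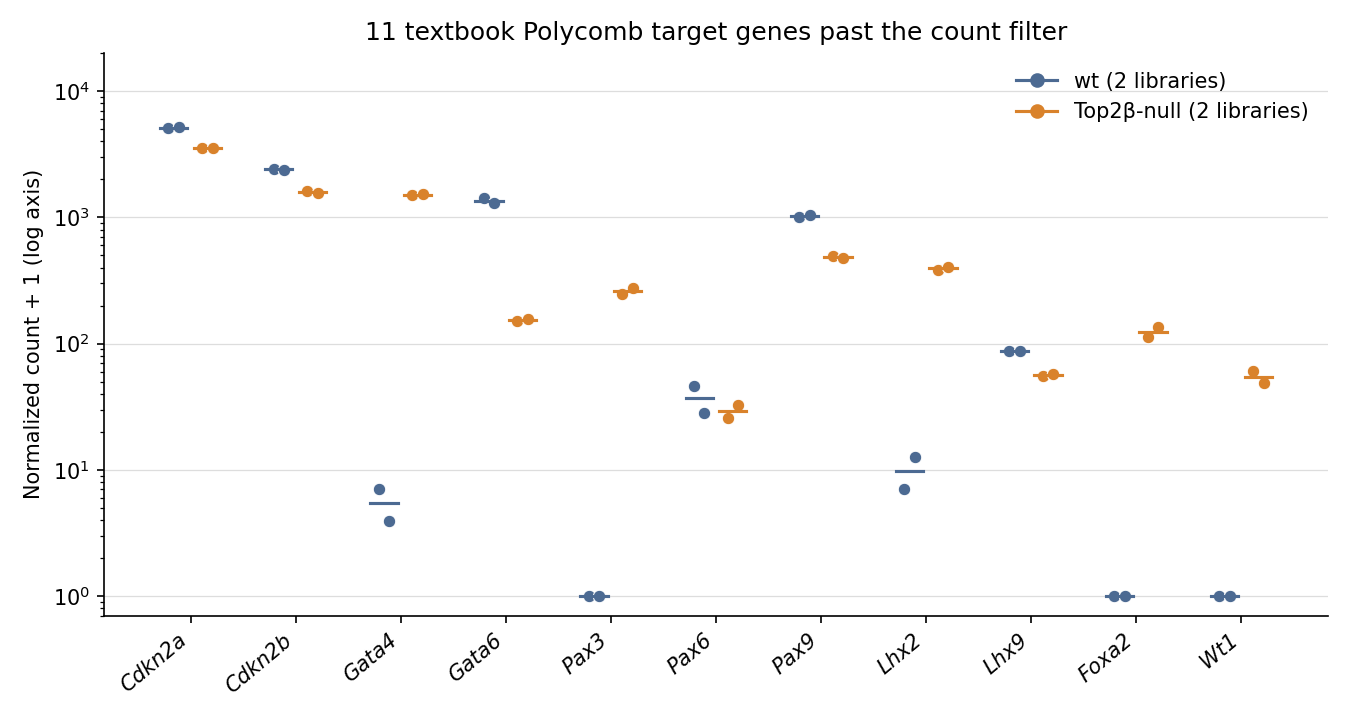
Normalized counts plus 1 (log axis) of the 11 Polycomb target genes that passed the filter on low counts, with points for the 2 wt and 2 Top2β-null libraries and bars for group means. Gata4, Pax3, Lhx2, Foxa2 and Wt1 are higher and Cdkn2a, Cdkn2b, Gata6, Pax9 and Lhx9 lower in both Top2β-null libraries, and Pax6 overlaps.

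Genes of PRC2 are known to be transcribed in dividing cells, so 15 proliferation genes were placed beside them. Of these, 13 had an adjusted p below 0.05 (9 higher and 4 lower), beside 66.4% of all genes tested. The median log2 fold change was 0.13, and the largest were those of Ccne1 (0.97) and Aurkb (0.81). Mki67, the common proliferation marker, had 76564 and 82448 normalized counts in wt and 88572 and 85687 in Top2β-null cells (log2 fold change 0.13), and Pcna had 29282 and 28692 against 22844 and 23226 (-0.33). Ezh2 rose by 0.88 and Rnf2 by 0.79 in the same libraries, and the part of the cell cycle in these values was not tested.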

How the data were processed

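Polycomb genes and related lists were chosen with earlier results of these data known. Total RNA libraries of 2 wt and 2 Top2β-null MEF samples were grouped by the labels. The deposited values are raw counts that the authors made with TEtranscripts from STAR alignments to mm10 of trimmed reads (Trim Galore!), with many alignments kept per read, over Gencode genes and a RepeatMasker annotation, strand setting and the sharing of multiply aligned reads not stated. Related gene copies may therefore share reads.

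Identifiers were matched to GENCODE M21, which also gave exon lengths and overlaps, while the authors counted over Gencode M9. The 26566 features that reached 10 counts in 2 or more libraries were tested in R 4.3.3 with edgeR 4.0.16 (quasi-likelihood test, TMM factors over genes and repeats, genotype as the only term), with Benjamini-Hochberg adjustment over all of them. Both count tests were checked on simulated counts. Replicate counts varied beyond counting noise (chi-square divided by its degrees of freedom: 3.65 for wt, 5.07 for Top2β-null) and were kept as separate samples. The totals of 133116830 counts and more per library leave counting error small for all but the lowest genes.

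Named genes are the 10 Polycomb genes, Top2b, the paralogues Ring1, Pcgf2, Cbx6 and Cbx8, listed genes past the study's cut-offs and the 3 nearest patterns to the gene with the largest change; other listed and neighbouring genes, S1pr1's values included, were named after their values were seen. Further items of these lists are not reported here. The check of overlapping genes (host over 5000 counts, inner gene of at least 300 bases) was also added then. Alternatives were DESeq2 1.42.0, scaling to the total count, TMM factors over genes alone, no filter on low counts, at least 100 counts in every library, the replicate number as a block and leaving out each library.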

Additional observations from a re-analysis of the deposited data

How the results depend on the processing

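Of 99 alternative values of the log2 fold changes of the 10 Polycomb genes, 97 kept their direction and their side of the threshold, none changed direction, and the 2 others were those of Eed: 0.091 with DESeq2 (adjusted p = 0.094) and 0.027 without the second wt library (adjusted p = 0.6, with a range over all alternatives from 0.0007 to 0.6). Across the alternatives with all libraries, Ezh2 ran from 0.88 to 0.95, Rnf2 from 0.79 to 0.86, Ezh1 from -0.41 to -0.34 and Cbx7 from 3.09 to 3.16, and with a library left out Cbx7 ran from 2.97 to 3.19. Requiring at least 100 counts in every library removed Cbx7 and left 0 of the Polycomb genes and 2 of the other Polycomb and opposing genes (1 higher) past the study's cut-offs, because the low wt counts failed the filter. Of the Polycomb target genes, that filter left 4 with an adjusted p below 0.05 (0 higher) and 2 past the cut-offs (0 higher), and with a library left out the first count ran from 5 to 10 (1 to 5 higher) and the second from 3 to 5 (1 to 3 higher). Scaling to total counts left 1 target gene lower past the cut-offs, without Pax9 (-0.99), and brought 1 proliferation gene, as higher, past them. Same-numbered libraries did not deviate together (correlation 0.0207 over 17952 features). A replicate block gave 0.88 for Ezh2, 0.79 for Rnf2 and 3.09 for Cbx7, moved the genes with an adjusted p below 0.05 from 16663 to 16388, and changed no call among the 10 genes. Where a library was left out, the lone library of its group was assumed to vary like the other group. No scaling moved the median over all genes by more than 0.1 on the log2 scale.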
